A study of Mus musculus with 5 samples.

Results

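The 10 genes described here encode Hsf1, the heat shock transcription factor, and 9 heat shock chaperones of the cytosol and of the mitochondrial matrix. They were chosen by symbol (Hsf1, Hspa1a, Hspa1b, Hspa8, Hsp90aa1, Hsp90ab1, Hsph1, Dnajb1, Hspd1 and Hspe1), and all 10 were found among the 13339 genes listed. Hspd1 and Hspe1 act in mitochondria and Hsf1 is no chaperone, so the set is cytosolic for the other 7. RNA was sequenced from macrophages that had been grown from the marrow of C57BL/6 mice of 8 weeks in M-CSF, the growth factor of that lineage, over 5 days. The titles mark the cells as WT. LPS, the outer membrane glycolipid of gram-negative bacteria that TLR4 detects, was given at 100 ng/ml, and the libraries were labelled 0, 4, 8, 12 and 24 h, with 1 library per time. Without replicates no test between times was possible, and each difference below compares a pair of libraries. Unstimulated cells held for the same hours were not analysed here, so the effects of LPS and of longer culture cannot be told apart.

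Chaperones bind unfolded or newly made proteins and keep them from clumping. In the cytosol an HSP70 protein takes up a client with a J-domain partner and releases it with a nucleotide exchange factor, and HSP90 finishes the folding of kinases and receptors. HSF1 is held inactive by chaperones in unstressed cells. When unfolded proteins accumulate, it forms trimers and binds heat shock elements, alternating GAA and TTC units in the promoters of chaperone genes. Hspa8 is the constitutive HSP70 gene, whereas Hspa1a and Hspa1b are the strongly stress-inducible ones.

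Promoter sequence of 5 members is shown because it carries such units. As deposited, the levels of these genes also had the largest differences from 0 h in either direction. Relative to the median gene, the log2 difference of Hspd1 was only -0.40 at 4 h, while that of Hsp90aa1, not shown, was 1.37 at 12 h. Sequences are those of RefSeq (GRCm38.p6), 5′ to 3′ on the strand of the gene, with capitals marking each pair of units (GAANNTTC or TTCNNGAA). Hspa1a (chr17:34972157-34972406, minus strand) and Hspa1b (chr17:34959239-34959488, minus strand) are given for the 250 bases before the annotated start. So is Hsph1 (chr5:149636337-149636586, minus strand). Hspd1 and Hspe1 lie head to head, and the 215 bases between an Hspd1 start and the Hspe1 start (chr1:55087933-55088147) are given on the plus strand of Hspe1. A second annotated Hspd1 start lies beyond the Hspe1 start, and its window held no match.
Hspa1a: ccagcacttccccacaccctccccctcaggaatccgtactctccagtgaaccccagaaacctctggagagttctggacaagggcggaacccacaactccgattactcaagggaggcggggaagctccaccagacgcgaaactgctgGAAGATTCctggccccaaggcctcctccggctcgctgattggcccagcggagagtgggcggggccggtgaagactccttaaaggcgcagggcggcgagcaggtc
Hspa1b: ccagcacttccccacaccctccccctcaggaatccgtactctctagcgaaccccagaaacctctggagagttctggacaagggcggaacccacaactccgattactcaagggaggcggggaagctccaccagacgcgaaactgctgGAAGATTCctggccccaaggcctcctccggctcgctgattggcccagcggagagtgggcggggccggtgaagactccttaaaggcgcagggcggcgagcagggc
Hsph1: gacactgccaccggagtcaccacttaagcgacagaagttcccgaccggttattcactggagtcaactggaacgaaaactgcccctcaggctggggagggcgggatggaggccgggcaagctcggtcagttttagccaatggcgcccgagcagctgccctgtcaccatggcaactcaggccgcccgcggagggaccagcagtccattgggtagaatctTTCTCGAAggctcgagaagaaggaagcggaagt
Hspd1-Hspe1: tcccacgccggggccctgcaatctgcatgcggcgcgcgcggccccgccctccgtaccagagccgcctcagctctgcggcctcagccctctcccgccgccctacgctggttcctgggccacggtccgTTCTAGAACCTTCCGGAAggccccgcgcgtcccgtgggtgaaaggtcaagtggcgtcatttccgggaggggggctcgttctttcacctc

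The Hspa1a and Hspa1b promoters differed at 3 of 250 positions, C44T, T47C and T249G (Hspa1a base, position from the 5′ end, Hspa1b base), and each had a pair of units from 104 to 97 bases before the start. The Hspd1-Hspe1 segment held an unbroken run of overlapping pairs, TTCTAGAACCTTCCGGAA, from 89 to 72 bases before the Hspe1 start. That segment lies inside the Hspd1 gene span given below. In Hsph1 the pair lay from 33 to 26 bases before the start used here and from 54 to 47 bases before a second annotated start. Part of the printed Hsph1 window, the pair included, lies inside the gene span given below. Dnajb1 had no match in either of its 2 windows. Of 32851 windows of 250 bases, 12.8% held a pair of units in either form and 0.466% a 3-unit run, that is a pair followed after 2 bases by the next alternating unit, which overlaps the pair form. Each pair reads the same on both strands and the 3-unit forms are each other's reverse complement, so both strands were covered. A match is a description of letters, not evidence of binding. Of the 10 members, 6 were matched in the promoter table by symbol. Hsf1, Hspa8, Hsp90aa1 and Hsp90ab1 were not.

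Levels are FPKM, fragment numbers scaled for transcript length and library size. Depth was not stated, and spacing of the lowest values gave an estimate of 19.1 M reads (M, mega) per library. It is 1 value fitted to all libraries together, so equal depth was assumed. Intervals quoted below are 95% Poisson intervals from that estimate and cover counting error only. The median gene was lower than at 0 h in the other libraries, by a log2(FPKM + 1) difference of -0.70, -0.49, -0.35 and -0.11 at 4, 8, 12 and 24 h. Differences are therefore also given centred, that is relative to the median gene. The 8 macrophage markers were all in the table, with a summed level of 2057 to 3141 FPKM. Of 9 dendritic cell markers, checked because 1 protocol field names dendritic cells, 5 stayed under 1 FPKM in all libraries, Flt3 and Zbtb46 among them. The sum of all 9 was 18.7 to 51.1 FPKM. Itgax was at 43.96, 30.79, 18.31, 15.02 and 4.65 FPKM and Ccr7 at 1.20, 4.82, 14.82, 11.54 and 9.13 FPKM at 0, 4, 8, 12 and 24 h, so these markers went opposite ways. Lyz2 was the lowest macrophage marker, at 19.07 to 37.54 FPKM. The 6 neutrophil markers in the table summed to 304, 282, 242, 176 and 58.5 FPKM at 0, 4, 8, 12 and 24 h. Most of that sum was S100a8 and S100a9. Mpo was listed at 0 at 24 h, whereas Ly6g was at 0.12, 0.19, 0.53, 1.14 and 3.71 FPKM over the same times. Lymphoid markers summed to 0.06 to 0.95 FPKM and stromal ones to 4.28 to 11.4. The part of other cells in the results was not tested. In bulk RNA, fewer cells of a type and less RNA per cell cannot be told apart.

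Hsf1, the regulator, was lower in the middle of the course. The gene (ID 15499) lies at chr15:76477362-76501155 (GRCm38, as all positions here). Its level was 11.91, 7.53, 6.54, 8.11 and 11.67 FPKM at 0, 4, 8, 12 and 24 h. The 0 h and 24 h libraries were the highest and their intervals overlapped (10.6 to 12.8 FPKM in the 24 h library, 10.9 to 13.0 FPKM in the 0 h library), and the 4, 8 and 12 h values were close to each other. The difference from 0 h was -0.60, -0.78, -0.50 and -0.03 at 4, 8, 12 and 24 h. Centred on the median gene these became 0.10, -0.29, -0.15 and 0.08, so relative to other genes Hsf1 stood nearly level. It never differed 2-fold from 0 h. Of the other heat shock factors and their binding proteins, Hsf2, a related factor, had 3.89 FPKM at 4 h and 10.75 at 24 h, against 7.02 at 0 h. Hsbp1, which binds and restrains HSF1, had 50.97 FPKM at 4 h and 71.8 at 24 h, against 109 at 0 h. These were the 2 of 5 listed genes over the filter, and Hsbp1 was at least 2-fold lower at 4 h but not after centring (-0.39).

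**Figure D1:**
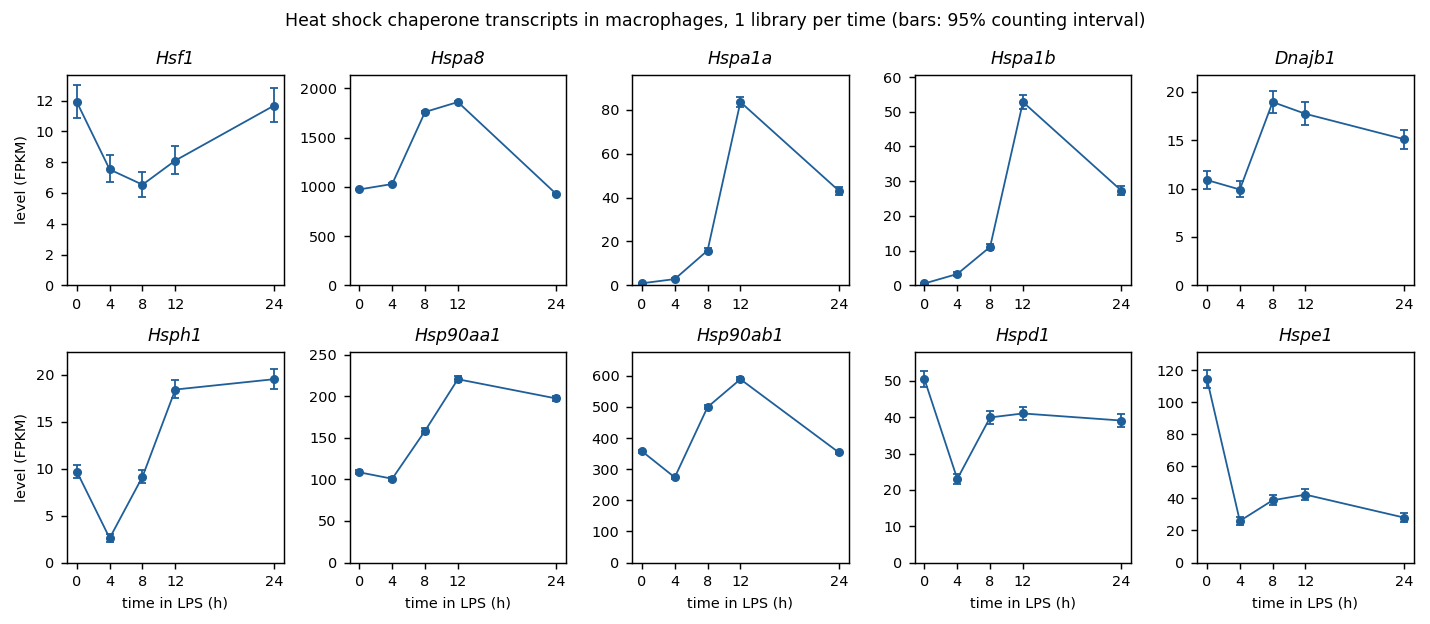
Level (FPKM, axis from 0) against time in LPS (h) for each of the 10 genes, with 1 point per library and bars for the 95% counting interval. Hspa1a and Hspa1b lie under 4 FPKM at 0 and 4 h and are highest at 12 h, Hspa8 and the HSP90 genes are highest at 12 h, and Hspd1 and Hspe1 are highest at 0 h.

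The inducible HSP70 genes had by far the largest differences of the set. They are Hspa1a (ID 193740, chr17:34969359-34972156) and Hspa1b (ID 15511, chr17:34956429-34959238). Hspa1a stood at 0.94, 2.85, 15.88, 83.55 and 43.11 FPKM at 0, 4, 8, 12 and 24 h. Hspa1b stood at 0.54, 3.27, 11.08, 52.80 and 27.27 FPKM at 0, 4, 8, 12 and 24 h. Both were lowest at 0 h and highest at 12 h, and both remained far above 0 h at 24 h. At 0 h the intervals were 0.703 to 1.23 FPKM for Hspa1a and 0.36 to 0.778 FPKM for Hspa1b, and at 12 h the Hspa1a interval was 81.2 to 86.0 FPKM.

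At 12 h against 0 h the ratio of FPKM was 88.9 for Hspa1a and 97.8 for Hspa1b (log2 differences of 5.45 and 5.13). Hspa1a ranked 70 and Hspa1b 81 among the 9795 genes with a mean of at least 1 FPKM. The step from 8 h to 12 h set them apart more. Here Hspa1a, with 83.55 FPKM at 12 h and 15.88 at 8 h, had the largest difference of all 9795 genes (2.32), and Hspa1b (2.15) ranked 4. Between 12 h and 24 h their levels went down in parallel, with 24 h at 0.516 of 12 h for each gene. The ratios for 24 h over 0 h were 45.9 and 50.5.

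The proteins of Hspa1a and Hspa1b are nearly the same, and so are large stretches of their transcripts. Of all 50-nt windows of the Hspa1a transcript, 58.8% also occurred in Hspa1b, and 62.3% the other way. The split of reads between them is therefore uncertain. Their ratio was 1.74, 0.872, 1.43, 1.58 and 1.58 at 0, 4, 8, 12 and 24 h, and at 4 h the intervals of the genes overlapped. The sum does not rest on the split. It was 1.48, 6.12, 26.96, 136 and 70.4 FPKM at 0, 4, 8, 12 and 24 h, which is 92.1 times the 0 h value at 12 h and 4.14 times at 4 h.

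Hspa8 (ID 15481, chr9:40801276-40805202), which encodes the constitutive HSP70, was one of the most abundant transcripts throughout. It stood at 974, 1029, 1761, 1862 and 927 FPKM at 0, 4, 8, 12 and 24 h. In FPKM the 8 h and 12 h libraries were high and the other 3 were alike in size. Among 13339 genes it ranked 57, 44, 25, 23 and 47 at 0, 4, 8, 12 and 24 h. Against 0 h its log2 differences were 0.08, 0.85, 0.93 and -0.07 at 4, 8, 12 and 24 h. With centring they were 0.78, 1.34, 1.29 and 0.03, so relative to the median gene the 4 h library lay in between. From 12 h to 24 h the difference was -1.01, the only member at least 2-fold lower on that step on the deposited scale (percent of all genes, 3.50%). Centred, Hspa1a (-1.16) and Hspa1b (-1.15) were too.

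Within a library, a ratio between genes does not depend on how that library was scaled as a whole. A trend by transcript length can still enter it. Hspa1a and Hspa1b together amounted to 0.152%, 0.595%, 1.53%, 7.32% and 7.6% of the Hspa8 level at 0, 4, 8, 12 and 24 h. The inducible share was thus as high at 24 h as at 12 h, while the levels of all 3 genes were lower at 24 h.

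Dnajb1 (ID 81489, chr8:83608175-83612653) and Hsph1 (ID 15505, chr5:149616843-149636498) are partners of the HSP70 cycle. Dnajb1, a J-domain protein that delivers clients and stimulates the ATPase, was at 10.88, 9.90, 18.94, 17.72 and 15.10 FPKM at 0, 4, 8, 12 and 24 h. The 8 h and 12 h values were highest, with overlapping intervals, and the 24 h value lay between them and the 0 h and 4 h values. Its largest difference from 0 h was 0.75, at 8 h, and 1.23 when centred. Hsph1, an exchange factor of the HSP110 class that also holds unfolded proteins, was at 9.69, 2.60, 9.14, 18.43 and 19.53 FPKM at 0, 4, 8, 12 and 24 h. It was lowest at 4 h and highest at 12 h and 24 h, whose intervals overlapped. The log2 difference of 4 h from 0 h was -1.57 (-0.87 centred, -1.01 with the trend by transcript length removed). Its 24 h level was 7.51 times that at 4 h, a log2 difference of 2.51 that ranked 150 of 9795. Relative to Hspa8, Hsph1 was at 0.995%, 0.253%, 0.519%, 0.99% and 2.11% at 0, 4, 8, 12 and 24 h.

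Both HSP90 genes were highest at 12 h, and they differed from each other at 24 h. Hsp90aa1 (ID 15519, chr12:110691036-110696395), the more inducible cytosolic form, stood at 109, 101, 158.5, 221 and 197 FPKM at 0, 4, 8, 12 and 24 h. Hsp90ab1 (ID 15516, chr17:45567778-45573261), the constitutive form, stood at 358, 274, 499, 589 and 354 FPKM at 0, 4, 8, 12 and 24 h. At 24 h Hsp90ab1 was back at its 0 h level, with overlapping intervals, and Hsp90aa1 was not. The log2 difference at 24 h against 0 h was 0.86 for Hsp90aa1 and -0.02 for Hsp90ab1 (0.96 and 0.09 centred). Hsp90aa1 amounted to 30.4%, 36.9%, 31.7%, 37.5% and 55.9% of Hsp90ab1 at 0, 4, 8, 12 and 24 h.

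**Figure D2:**
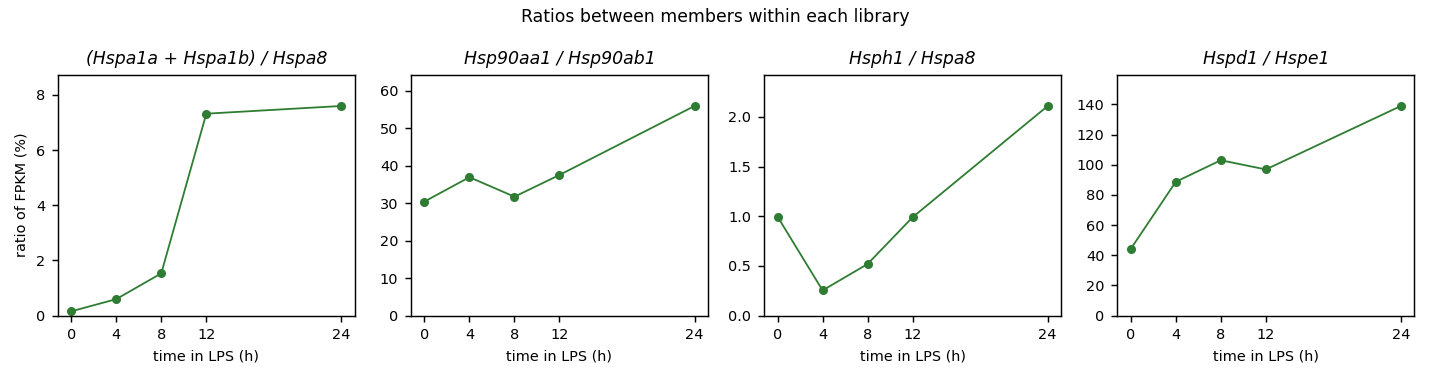
Ratio of FPKM in percent (each axis from 0) against time in LPS (h), with 1 point per library, for 4 pairs of genes. The inducible HSP70 genes reach 7.32% of Hspa8 at 12 h and 7.6% at 24 h, and Hsp90aa1 reaches 55.9% of Hsp90ab1 at 24 h.

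Hspd1 (ID 15510, chr1:55077833-55088243) and Hspe1 (ID 15528, chr1:55088148-55091317) encode the mitochondrial chaperonin and its lid, and share the promoter segment printed above. Hspd1 was at 50.47, 23.01, 39.95, 41.04 and 39.09 FPKM at 0, 4, 8, 12 and 24 h. Hspe1 was at 114, 25.93, 38.82, 42.34 and 28.04 FPKM at 0, 4, 8, 12 and 24 h. Both were highest at 0 h and lowest at 4 h. Afterwards Hspd1 held a level close to 40 FPKM with overlapping intervals, while Hspe1 at 24 h overlapped its 4 h value.

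The Hspe1 difference was smaller once the trend by transcript length was removed. The longest coding transcript is 774 nt for Hspe1 and 2423 nt for Hspd1. The log2 difference of Hspe1 from 0 h was -2.10, -1.53, -1.41 and -1.99 at 4, 8, 12 and 24 h. With the length trend removed it was -0.80, -0.41, -0.29 and -1.04. For Hspd1 the 4 h difference was -1.10, or -0.40 centred and -0.29 with the length trend removed. With that trend removed, Hspd1 differed from 0 h by 0.24, 0.14 and -0.15 at 8, 12 and 24 h. The deposited level of Hspd1 was 44.2% of that of Hspe1 at 0 h and 88.7%, 103%, 96.9% and 139% at 4, 8, 12 and 24 h. The length trend was not removed from this ratio, and the transcripts differ in length, so the trend is part of it. Reads of Hspd1 and Hspe1 may also be divided with related pseudogenes, of which the gene table names 5 for Hspd1 and 6 for Hspe1.

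Counted by a 2-fold difference on the log2(FPKM + 1) scale, 1 member (Hspa1b) was higher and 3 (Hsph1, Hspd1 and Hspe1) were lower at 4 h than at 0 h. Of all 9795 genes 12.2% were higher and 38.1% lower. Hspa1a missed the threshold there with 0.99, although its ratio of FPKM was 3.03. The 8 h library had 2 members higher than 0 h (Hspa1a and Hspa1b) and 1 lower (Hspe1), against 12.0% and 28.9% of all genes. At 12 h against 0 h 3 (Hspa1a, Hspa1b and Hsp90aa1) were higher and 1 (Hspe1) lower, against 12.3% and 21.5%. The 24 h library had 2 higher (Hspa1a and Hspa1b) and 1 lower (Hspe1), against 11.3% and 14.5%.

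Scaling changed these counts. With libraries centred on the median gene, 7 members passed 2-fold upward at 12 h against 0 h (16.5% of all genes) and 1 downward (12.9%). The 7 were Hspa1a (5.80), Hspa1b (5.48), Hsp90aa1 (1.37), Hspa8 (1.29), Hsph1 (1.22), Hsp90ab1 (1.07) and Dnajb1 (1.01), and the lower one was Hspe1 (-1.06). At 8 h 5 were higher (18.0% of all genes) and 1 lower (14.9%), at 4 h 2 were higher (21.5%) and 1 lower (13.4%), and at 24 h 3 were higher (12.6%) and 1 lower (12.3%). With the length trend removed, over 9484 genes of known length, 2 members were higher (19.8% of genes) and 1 lower (11.9%) at 4 h, 5 higher (18.1%) and 0 lower (12.6%) at 8 h, 7 higher (16.4%) and 0 lower (9.90%) at 12 h, and 2 higher (12.2%) and 1 lower (9.64%) at 24 h. Hspe1 was the lower one at 24 h and Hsph1 at 4 h. The median of the 10 differences was -0.25, 0.51, 0.79 and 0.21 at 4, 8, 12 and 24 h on the deposited scale, beside -0.70, -0.49, -0.35 and -0.11 for all genes.

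**Figure D3:**
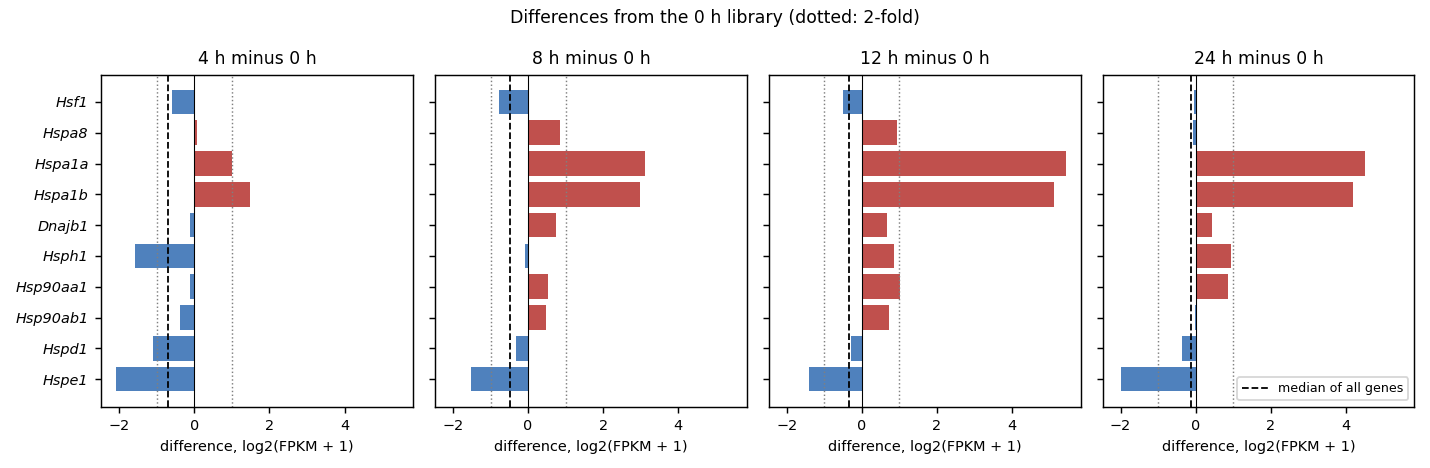
Difference from the 0 h library on log2(FPKM + 1) for the 10 genes at 4, 8, 12 and 24 h, with 1 bar per gene, a dashed line at the median of all genes and dotted lines at 2-fold. At 12 h the bars of Hspa1a and Hspa1b reach 5.45 and 5.13, and 7 of the 10 bars lie above 0, beside a median of all genes of -0.35.

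The steps between stimulated libraries were compared too. At 8 h against 4 h 3 members were higher (Hspa1a, Hspa1b and Hsph1) and 0 lower, against 5.23% and 3.88% of all genes. There 9 of the 10 differences were above 0 (9 centred too), and so was the median of all genes (0.15). At 12 h against 8 h Hspa1a and Hspa1b were higher and 0 members lower, against 2.58% and 0.939% of all genes. At 24 h against 12 h 0 members were higher (3.42% of all genes). There 8 of the 10 differences were below 0 (9 centred), beside a median of all genes of 0.22. At 24 h against 4 h Hspa1a, Hspa1b and Hsph1 were higher and 0 members lower, against 25.0% and 8.19% of all genes. Centred, the counts were 3 higher and 0 lower at 8 h against 4 h (3.46% and 5.36% of all genes), 2 and 0 at 12 h against 8 h (1.61% and 1.38%), 0 and 3 at 24 h against 12 h (1.51% and 5.67%) and 3 and 0 at 24 h against 4 h (9.65% and 15.3%). With the length trend removed the members' counts were the same, and the shares of genes were 3.51% and 4.79%, 1.52% and 1.30%, 1.61% and 5.40%, and 9.84% and 14.8%. These comparisons share libraries with each other and with those against 0 h.

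By the time of the highest library, 5 members (Hspa1a, Hspa1b, Hspa8, Hsp90aa1 and Hsp90ab1) had their maximum at 12 h, as had 7.58% of all genes. A maximum at 0 h was found in 3 (Hsf1, Hspd1 and Hspe1), and in 48.7% of all genes. Dnajb1 was highest at 8 h (6.77% of all genes) and Hsph1 at 24 h (24.5%). Centred on the median gene, 5 members were again highest at 12 h (10.4% of all genes), with Hsph1 among them in place of Hspa8. The other 5 were Hspa8, Hspd1 and Dnajb1 at 8 h (14.4%), Hsf1 at 24 h (14.4%) and Hspe1 at 0 h (37.2%), and 0 were highest at 4 h (23.6%, or 12.4% of all genes uncentred). Hspa1a and Hspa1b share reads, so they are not separate instances. Together the 10 members made up 0.316%, 0.34%, 0.538%, 0.615% and 0.341% of the summed FPKM at 0, 4, 8, 12 and 24 h. Hspa8 alone was between 55.8% and 69.6% of that sum.

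Other genes of the HSP70 and HSP90 cycles differed in both directions. The counts that follow stand beside 12.2% of all genes higher and 38.1% lower at 4 h (median -0.70), and 11.3% higher and 14.5% lower at 24 h (median -0.11). No list was tested against all genes, and the lists are short. Of 22 listed HSP70 partners 20 were over the filter. At 4 h against 0 h 2 were at least 2-fold higher and 5 lower, a smaller share lower than among all genes, with a median of -0.52. Centred, 3 were higher and 0 lower, beside 21.5% and 13.4% of all genes on that scale. The J-domain genes Dnaja2 (169 FPKM at 4 h, 43.4 at 0 h) and Dnaja1 (84.4 at 4 h, 34.95 at 0 h) were the higher ones. Dnaja2 was back to 44.6 FPKM at 24 h, and Dnaja1 was highest at 8 h with 117 FPKM. Both were highest earlier than the inducible HSP70 genes, whose maximum was at 12 h. Stub1, a ubiquitin ligase that marks chaperone clients for breakdown (16.3 FPKM at 4 h, 45.4 at 0 h), was the lowest. Bag4, Hspbp1, Bag5 and Bag3, exchange factors of HSP70, were the others at least 2-fold lower. Bag3, which directs clients to autophagy, had 13.70 FPKM at 4 h and 16.35 at 24 h, against 30.46 at 0 h. By 24 h 0 partners were higher than at 0 h and 1, Hspbp1 (9.30 and 29.6 FPKM), was lower, with a median of -0.31.

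Of 16 HSP90 co-chaperones, all over the filter, 1 was at least 2-fold higher and 5 lower at 4 h, and the median against 0 h was -0.63. The share lower was a little under the 38.1% of all genes. Centred, 3 were higher (21.5% of all genes) and 1 lower (13.4%). Stip1, which hands clients from HSP70 to HSP90, was the higher one, with 36.1, 95.2, 113, 72.9 and 41.3 FPKM at 0, 4, 8, 12 and 24 h. Pih1d1, of the R2TP assembly complex (7.80 FPKM at 4 h, 30.5 at 0 h), Fkbp4, an immunophilin of steroid receptors (9.37 and 27.9), Ahsa1, which stimulates the HSP90 ATPase (44.7 and 108), and Ttc4 were among the lower ones. By 24 h 0 were higher than at 0 h and 1, the kinase-loading factor Cdc37 (36.8 and 76.2 FPKM), was lower, but only by -0.92 once centred. Chordc1 had the highest difference (0.50), with 30.8 FPKM at 24 h and 21.55 at 0 h.

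TRiC, the cytosolic chaperonin, and prefoldin, which feeds it, gave 0 higher and 3 lower genes of 14 at 4 h against 0 h (median -0.47), a smaller share lower than the 38.1% of all genes. Vbp1 (0.08) at 4 h and Cct3 (0.24) at 24 h had the highest differences. The 3 were the prefoldin genes Pfdn5, Pfdn6 and Pfdn1, and 1 of them, Pfdn5, was still 2-fold lower after centring (13.4% of all genes). With the length trend removed 0 of 13 with a known length were lower (11.9% of genes) and 2 (Pfdn4 and Vbp1) higher (19.8%). At 24 h Pfdn5 (55.95 FPKM, against 253 at 0 h) was the 1 gene at least 2-fold lower. The 8 TRiC subunit genes were within 2-fold of 0 h at both times.

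Of 12 mitochondrial chaperones and proteases 6 were at least 2-fold lower and 0 higher at 4 h than at 0 h (median -0.99), beside 38.1% and 12.2% of all genes and their median of -0.70. Centred, 2 were lower (13.4% of all genes) and 1, the inner membrane protease gene Yme1l1 (30.51 FPKM at 4 h, 21.76 at 0 h), was higher (21.5%). Hscb, a J-domain protein of iron-sulfur cluster assembly, had 1.01 FPKM at 4 h and 21.6 at 0 h, and the matrix protease subunit gene Clpp 2.22 and 15.70. Htra2, Dnaja3, Lonp1 and Grpel1 were the other 4. Comparing 24 h with 0 h, Afg3l2, an inner membrane protease (28.8 and 12.50 FPKM), was higher and Hscb (6.80 and 21.6) lower, and the median was -0.03. Genes listed as small heat shock proteins, Hspb11 among them by symbol only, were scarce: 6 of 8 were in the table and 2 over the filter. Those were Hspb11 (1.82 FPKM at 4 h, 8.18 at 0 h) and Hspb6 (0.67 at 4 h, 2.51 at 0 h), both at least 2-fold lower at 4 h, and within 2-fold at 24 h. Centred, Hspb11 alone was (-1.01). Hspb1, the most studied member of that class, stayed between 0.24 and 0.72 FPKM.

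The chaperones of the endoplasmic reticulum, set beside these for comparison, gave 0 higher and 5 lower genes of 14 at 4 h against 0 h (median -0.71) and 0 higher and 1 lower at 24 h (median -0.14). The share lower at 4 h was close to the 38.1% of all genes. Centred, 1 was higher (21.5% of all genes) and 1 lower (13.4%) at 4 h. Hspa5, their HSP70, stood at 307, 496, 401, 407 and 327 FPKM at 0, 4, 8, 12 and 24 h, so its highest library was that of 4 h. Sdf2l1, a partner of Hspa5 (18.9 FPKM at 4 h, 94.2 at 0 h), had the largest negative difference at both times. Pdia4 (-1.52), Dnajb9 (-1.21), Creld2 (-1.12) and Pdia3 (-1.04) were the other 4 at 4 h. Dnajb9, a J-domain partner of Hspa5, had the highest difference at 24 h (0.38). No test of a difference between these lists and the members was possible.

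**Figure D4:**
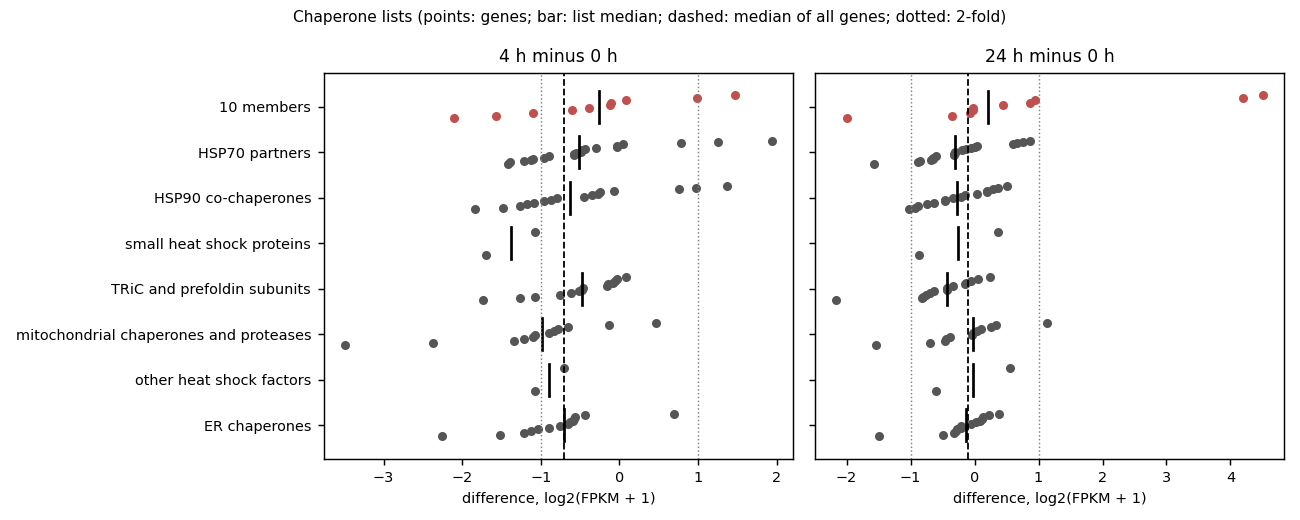
Difference from 0 h on log2(FPKM + 1) at 4 h and 24 h for the 10 members and 7 lists of chaperone genes over the filter, with 1 point per gene, a bar at each median and a dashed line at the median of all genes. Hspa1a and Hspa1b lie apart at 24 h, at 4.51 and 4.20.

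Likeness of course was measured as the root mean square difference in log2(FPKM + 1) over the 5 libraries, each gene centred on its own mean, among genes with a mean of at least 10 FPKM. Closest to Hsp90aa1 were Atn1 (0.0598), Lgals8 (0.076), Bak1 (0.0859), Pitpnm1 (0.0866) and Clip2 (0.0921), and 48 of 4906 genes lay within 0.2. Atn1, for example, had 13.39, 12.18, 17.96, 25.37 and 23.95 FPKM at 0, 4, 8, 12 and 24 h. No other member was among those 5. Closest to Hsf1 were B230219D22Rik (0.0515), Runx1 (0.0529), Hipk1 (0.0564), Tob2 (0.0606) and Pan3 (0.062), and 341 of 4907 genes lay within 0.2. On this scale, a course like that of Hsf1 was therefore more common than one like that of Hsp90aa1. Libraries were not centred on the median gene here, and the centred differences of Hsf1 from 0 h were small (-0.29 to 0.10). How far the shift of the median gene enters these counts was not tested. With 5 points per gene, likeness is a description only.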

How the data were processed

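FPKM values were deposited by the authors as 1 table, per the file headers. The submitters' processing notes list Bowtie2, RSEM and GRCm38, and versions, roles, annotation and filters are not stated in what was read here. FPKM are scaled to the library and to transcript length, so a gene's value is lower when others take a larger share of reads, and reads of near-identical copies are divided by estimate.

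Differences are on log2(FPKM + 1), a scale that makes low genes look less changed, and ratios on FPKM. Genes with a mean of at least 1 FPKM entered counts (9795; 3544 were below), with a 2-fold threshold. With 1 library per time no test was run. Alternatives were pseudocounts of 0.1 and 5, centring on the median gene, equal sums, removal of the length trend (statsmodels 0.14.6 lowess, fraction 0.3, on the longest coding transcript of GENCODE M21, known for 96.8% of those genes), no filter, a 1.5-fold threshold and Hspa1a and Hspa1b summed. In 20 rows a symbol turned into a date was restored by gene identifier.

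The depth, 1 value shared by all libraries, was estimated from 230 low values of genes with 1 annotated transcript, its length reduced by 40 nt. At 19.1 M reads 39.6% were whole within 0.04 reads or the rounding of the table, against 16.7% by chance for a fixed step. The step was chosen for the best match between 5 and 60 M, so more would match by chance than that, and the depth is an estimate. Whole read numbers were therefore not rebuilt, and no count test was run.

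The 10 members, the 7 chaperone lists and the marker lists were chosen with earlier results of these data known. Named genes are the members, for each list the largest difference in each direction at 4 h and 24 h among genes over the filter together with others at least 2-fold apart where a list has 5 or fewer of them, the 5 genes closest in course to Hsp90aa1 and Hsf1, and the outermost markers. Chosen with their values in view, outside that rule, were Hspb1, Ccr7, S100a9, Mpo, other genes of lists with over 5 at least 2-fold apart, the course of Dnaja1, Dnaja2 and Stip1, Flt3, and the genes of the closing section. A gene of the HSP90 list is not reported here by name. The counting step was tested on simulated data. Python 3.11.15, numpy 2.4.6 and pandas 2.3.3 were used.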

Additional observations from a re-analysis of the deposited data

How the results depend on the processing

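Of the 10 members, Hspe1 was the 1 at least 2-fold lower at 24 h against 0 h, and Hspa1a and Hspa1b were among those higher at 12 h, on all 3 scales (deposited, centred, length trend removed). Other counts moved. At 4 h against 0 h the 1 higher member became 2 with a pseudocount of 0.1, centred, with equal sums, with the length trend removed or at 1.5-fold, and 0 with a pseudocount of 5. The 3 lower became 1 with a pseudocount of 5, centred or with the length trend removed, 2 with equal sums and 4 at 1.5-fold. At 8 h the 2 higher became 5 centred or with the length trend removed, 4 at 1.5-fold and 1 with Hspa1a and Hspa1b summed, and the 1 lower became 0 with the length trend removed and 2 at 1.5-fold. At 12 h the 3 higher became 7 centred, with the length trend removed or at 1.5-fold. They became 4 with equal sums and 2 with a pseudocount of 5 or when summed. The 1 lower at 12 h became 0 with the length trend removed. At 24 h against 0 h the 2 higher became 3 with a pseudocount of 0.1, centred or with equal sums. They became 1 when summed and 4 at 1.5-fold. From 4 h to 24 h the 3 higher became 2 when summed and 5 at 1.5-fold. At 8 h against 4 h the 3 became 1 with a pseudocount of 5, 2 when summed and 8 at 1.5-fold. At 12 h against 8 h the 2 became 3 with a pseudocount of 0.1 or at 1.5-fold, and 1 when summed. At 24 h against 12 h the 1 lower became 3 centred or with the length trend removed and 4 at 1.5-fold. Summing makes 1 gene of a pair, and 1.5-fold is a lower bar. For the other settings the cause was not tested. Shares of all genes were recorded for the deposited, centred and length-trend scales only, and stand with the counts above. Counts at the other settings, here and in the next paragraph, have no such share beside them. Whether they exceed that of all genes cannot be told.

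At 4 h against 0 h, genes at least 2-fold apart in either direction were counted for each list. HSP70 partners had 7. They had 9 with a pseudocount of 0.1, 4 with a pseudocount of 5, 3 centred and 2 with the length trend removed. HSP90 co-chaperones had 6. They had 10 with a pseudocount of 0.1, 4 with a pseudocount of 5 or centred and 3 with the length trend removed. Genes listed as small heat shock proteins had 2, and 0 with a pseudocount of 5, 1 centred and 0 with the length trend removed. TRiC and prefoldin had 3, and 2 with a pseudocount of 5 or the length trend removed and 1 centred. Mitochondrial chaperones had 6. They had 7 with a pseudocount of 0.1, 3 with a pseudocount of 5 or centred and 2 with the length trend removed. Other heat shock factors had 1, and 0 centred or with the length trend removed and 2 with no filter. Chaperones of the endoplasmic reticulum had 5, and 3 with a pseudocount of 5 and 2 centred or with the length trend removed. At 24 h HSP70 partners went to 2 and small heat shock proteins to 1 with a pseudocount of 0.1, HSP90 co-chaperones to 0 with a pseudocount of 5 or centred, mitochondrial chaperones to 1 with a pseudocount of 5 or the length trend removed, other heat shock factors to 1 with no filter, and endoplasmic reticulum chaperones to 0 with the length trend removed. No called member difference changed sign. Centring left the number of members highest at 12 h at 5, a check added after the data were seen. No paired analysis was possible because each time point had 1 library. The estimated depth limits Hspa1a and Hspa1b at 0 h most, where about 53 and 28 reads stood behind the values.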

Other observations

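The J-domain family, taken by symbol after the data were seen, had 41 genes in the table and 35 over the filter. Of these 3 were at least 2-fold higher and 11 lower at 4 h than at 0 h, beside 12.2% and 38.1% of all genes, and 2 were higher and 4 lower at 24 h, beside 11.3% and 14.5%. The share lower at 4 h was a little under that of all genes, a difference that was not tested. Centred, the counts were 3 and 2 at 4 h (21.5% and 13.4% of all genes), and 3 and 3 at 24 h (12.6% and 12.3%). Dnajc13, which works on endosomes, stood beside Dnaja1 and Dnaja2 at 4 h, with 42.0 FPKM at 4 h and 12.17 at 0 h. Dnajc1, a J-domain protein of the endoplasmic reticulum, had 6.92, 5.98, 17.4, 27.8 and 22.4 FPKM at 0, 4, 8, 12 and 24 h, with its maximum at 12 h like Hspa1a and Hspa1b. Of the 35 it was the 1 gene with its maximum at 12 h, beside 7.58% of all genes, a count too small to compare. Dnajc9, a histone-binding J-domain protein, had 10.56, 2.16, 1.5, 1.63 and 4.05 FPKM at 0, 4, 8, 12 and 24 h.

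Hspa1l, the HSP70 gene that neighbours Hspa1a on chromosome 17, was at 0.57, 0.35, 1.28, 1.68 and 2.04 FPKM at 0, 4, 8, 12 and 24 h. Its levels stayed far under those of Hspa1a from 8 h on.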
